A study of Mus musculus with 20 samples.

Results

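The genes described here encode the core of the synaptic vesicle fusion machinery: Syt1, Syt2, Vamp1, Vamp2, Snap25, Stx1a, Syn1, Syn2, Cplx1 and Cplx2. They were chosen by name, as all probe sets that the array annotation assigns to these 10 genes, out of 12393 genes that it names. This gave 19 probe sets with a single gene name, of 22626 that are not array controls. A further probe set, 1453647_at, is annotated to both E130112N10Rik and Vamp1. It lay between intensities of 10.8 and 114, below the limit for low values on all 20 arrays, and was left out. That limit is each array's 40th percentile of intensity, 606 to 775, and a probe set was kept where it passed on at least 2 arrays, as all 19 did. Of the 10 genes, 3 had 1 probe set, 5 had 2, and Syt2 and Cplx1 had 3 each. For each gene the probe set with the highest mean leads, and the others are given beside it.

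Total RNA was measured on 20 single-channel expression arrays, from knock-in and wild-type mice. For each genotype, cerebellum and forebrain were measured at 11 weeks (2 arrays per group) and at 4 weeks (3 arrays per group), which makes 8 groups. Neither the allele that was knocked in nor the strain is given in the labels, and the titles give the later age as 12 weeks where the descriptions give 11. No label says whether each array had its own mouse, or whether both regions came from the same mice, so p-values reflect only how far these arrays scatter, and that scatter may be technical. The number of arrays limits the precision.

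The region labels conflict, and every comparison that uses forebrain rests on how the conflict is settled. Of the 10 arrays grouped as forebrain, 7 carry a source name and title words that say cerebellum. The other 3 are the wild-type arrays at 4 weeks. For 1 of the 7, knock-in forebrain 4 weeks replicate 3, the description says cerebellum as well. Arrays were grouped by the short code inside the title. On this grouping Pcp2, a marker of cerebellar Purkinje cells, read at least 38010 on the cerebellum arrays and 50 to 579 on the forebrain arrays. Bcl11b, a transcription factor of cortical projection neurons, read at most 31.9 on the cerebellum arrays and 3472 to 6182 on the forebrain arrays. Both forebrain ranges include the knock-in forebrain array that has no forebrain label beyond its code. The member Stx1a read 30596 on that array and 414 to 2235 on the 10 cerebellum arrays. As a gene compared below, Stx1a gives no independent support for the grouping. The median intensity per array was 979 to 1180, and the 3'/5' ratio of the GAPDH control, a sign of RNA quality, was 0.744 to 0.903.

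Synaptic vesicles fuse when VAMP on the vesicle zippers into a SNARE complex with syntaxin 1 and SNAP-25 on the plasma membrane. Synaptotagmins 1 and 2 sense the calcium that triggers fusion, complexins clamp and assist the assembled complex, and synapsins tether the vesicle reserve. Syt2, Vamp1 and Cplx1 are the forms known from fast, precisely timed synapses, such as those of the hindbrain and of fast-spiking interneurons. Syt1, Vamp2 and Cplx2 are known as the prevailing forms of many forebrain synapses.

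Promoter sequences were available for 8 of the 10 genes, all but Vamp2 and Snap25 (11 promoters, RefSeq, GRCm38.p6, 250 bases before to 50 after the annotated start). The sequences shown belong to Syt2 and Vamp1, whose leading probe sets varied together across arrays, and to Stx1a and Syn1, which were lower in cerebellum than in forebrain. Each is written 5′ to 3′ along the gene's strand, and capitals mark matches to a searched motif. For Syt2, both annotated starts are given, at chr1:134646362-134646661 and chr1:134709050-134709349 on the plus strand.
Syt2, first start: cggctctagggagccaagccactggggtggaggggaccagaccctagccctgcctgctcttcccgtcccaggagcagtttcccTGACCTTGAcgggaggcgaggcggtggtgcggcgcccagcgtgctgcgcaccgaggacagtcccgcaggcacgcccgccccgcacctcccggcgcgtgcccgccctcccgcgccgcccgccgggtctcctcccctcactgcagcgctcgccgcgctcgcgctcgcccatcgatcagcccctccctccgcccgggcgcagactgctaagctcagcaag
Syt2, second start: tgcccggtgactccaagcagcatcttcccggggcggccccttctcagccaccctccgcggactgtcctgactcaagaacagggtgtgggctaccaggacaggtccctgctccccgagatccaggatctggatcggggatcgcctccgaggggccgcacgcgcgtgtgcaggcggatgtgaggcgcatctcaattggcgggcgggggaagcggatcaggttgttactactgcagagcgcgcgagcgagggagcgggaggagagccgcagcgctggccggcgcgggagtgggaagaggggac
The promoter of Vamp1 lies at chr6:125215331-125215630 on the plus strand, and that of Stx1a at chr5:135023232-135023531 on the plus strand.
Vamp1: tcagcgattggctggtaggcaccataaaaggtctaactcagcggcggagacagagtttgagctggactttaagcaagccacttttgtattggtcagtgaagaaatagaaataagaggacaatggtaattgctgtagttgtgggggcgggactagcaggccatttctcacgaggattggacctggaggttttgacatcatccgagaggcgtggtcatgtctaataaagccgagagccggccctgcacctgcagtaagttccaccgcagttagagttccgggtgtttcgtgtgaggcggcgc
Stx1a: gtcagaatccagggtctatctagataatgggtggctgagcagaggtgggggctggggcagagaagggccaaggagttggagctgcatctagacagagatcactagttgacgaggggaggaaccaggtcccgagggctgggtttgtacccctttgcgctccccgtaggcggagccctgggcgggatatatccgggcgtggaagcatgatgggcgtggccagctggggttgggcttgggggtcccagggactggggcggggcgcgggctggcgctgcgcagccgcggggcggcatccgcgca
The promoter of Syn1 lies at chrX:20920869-20921168 on the minus strand.
Syn1: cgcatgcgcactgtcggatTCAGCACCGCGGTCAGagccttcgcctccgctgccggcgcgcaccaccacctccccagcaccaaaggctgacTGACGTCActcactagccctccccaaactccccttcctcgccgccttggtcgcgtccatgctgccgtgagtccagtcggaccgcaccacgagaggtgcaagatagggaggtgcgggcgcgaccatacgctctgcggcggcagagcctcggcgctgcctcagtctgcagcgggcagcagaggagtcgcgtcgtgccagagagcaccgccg

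The motifs were chosen after these promoters had been read, and were searched on both strands. The estrogen-related receptor element TCAAGGTCA was present in 0.423% of 32851 promoters and, on the reverse strand, began 167 bases before the first Syt2 start. The cyclic AMP response element TGACGTCA, which reads the same on both strands, was present in 1.79% of promoters. The core of the RE1 silencer element, TCAGCACC followed by any 2 bases, GG, any base and CAG, was present in 0.0396%, or 13 promoters. Syn1 held both, 159 and 231 bases before its start, and the matches do not overlap. No other member promoter matched, which says only that these letters are not in these windows. The Syt2 promoters held 74.3% and 68.3% G and C bases, that of Vamp1 51.7%, that of Stx1a 66.3% and that of Syn1 68.3%, against a median of 52.7% over all promoters.

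Which of these genes distinguish cerebellum from forebrain? Syt2 and Vamp1 were higher in cerebellum, Stx1a, Syt1, Syn1, Syn2 and Vamp2 were lower, and Cplx1 and Snap25 differed by little. Values were compared as log2(intensity + 16) in a model of all 20 arrays (limma), with ages weighted equally, and a probe set was called at a Benjamini-Hochberg adjusted p under 0.05 over the 15627 probe sets kept. Such differences understate the change of dim probe sets. In knock-in mice 14 of the 19 probe sets were called, 5 higher and 9 lower in cerebellum, where 45.6% of all kept probe sets were called (24.5% higher, 21.2% lower). In wild-type mice 15 of 19 were called, 5 higher and 10 lower, where 47.9% of all were (26.6% higher, 21.3% lower). The median difference of the 19 was -0.31 in knock-in mice and -0.42 in wild-type mice, beside 0.02 and 0.04 over all kept probe sets. In whole tissue, fewer cells of a type and less RNA per cell cannot be told apart.

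Among the calcium sensors, the leading probe set of Syt2, 1440323_at, read 6732 and 7825 at 11 weeks and 6539, 7459 and 7042 at 4 weeks in knock-in cerebellum. In knock-in forebrain it read 728 and 597 at 11 weeks and 596, 1177 and 550 at 4 weeks. Every cerebellum array lay above every forebrain array. The difference was 3.33 ± 0.18 (SE, adjusted p = 5.04e-10), or 10.1-fold. In wild-type mice it read 8009, 7779, 7930, 7322 and 6669 in cerebellum, against 1409, 1121, 1511, 1026 and 952 in forebrain. In such lists of 5, the 2 arrays at 11 weeks come before the 3 at 4 weeks. That difference was 2.65 ± 0.18 (adjusted p = 6.73e-09), or 6.27-fold, and again the regions did not overlap. The other Syt2 probe sets, 1420418_at and 1449866_at, were also higher in cerebellum, by 2.98 and 2.80 in knock-in mice and by 2.61 and 2.53 in wild-type mice. Syt2 was dim in forebrain: its 3 probe sets passed the limit for low values on 7, 3 and 3 of 10 forebrain arrays, and on all 10 cerebellum arrays. Probe set 1420418_at passed on none of the 5 knock-in forebrain arrays, and raising those values to the limit makes it at least 5.61-fold higher in knock-in cerebellum.

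Syt1, the paralogue of Syt2, went the other way. Its leading probe set, 1421990_at, read 10861, 8014, 15006, 13679 and 12780 in knock-in cerebellum and 27983, 21323, 26376, 21766 and 22476 in knock-in forebrain. It read 12384, 11613, 10793, 13068 and 13069 in wild-type cerebellum and 30129, 29424, 24640, 32421 and 31610 in wild-type forebrain. The regions did not overlap in either genotype. The log2 difference was -1.08 ± 0.12 in knock-in mice (adjusted p = 1.75e-06) and -1.28 ± 0.12 in wild-type mice (adjusted p = 1.89e-07). Its second probe set gave -0.76 in knock-in mice and -1.21 in wild-type mice, both called.

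Among the vesicle SNAREs, Vamp1 (synaptobrevin 1) was higher in cerebellum and Vamp2 (synaptobrevin 2) lower. Vamp1 1421863_at read 14509, 14642, 13447, 18166 and 14283 in knock-in cerebellum, against 6979, 5800, 6457, 7629 and 5307 in knock-in forebrain. In wild-type mice it read 15472, 17048, 14756, 13623 and 12953 in cerebellum, against 9809, 8794, 10468, 8599 and 7853 in forebrain. All cerebellum arrays lay above all forebrain arrays. The difference was 1.22 ± 0.12 in knock-in mice (adjusted p = 4.91e-07, 2.33-fold) and 0.72 ± 0.12 in wild-type mice (adjusted p = 0.00012, 1.64-fold). The second Vamp1 probe set, 1421862_a_at, was higher by 0.88 in knock-in mice and by 0.69 in wild-type mice, both called. Vamp2 1420834_at averaged 17703 ± 2742 in knock-in cerebellum and 22645 ± 1674 in knock-in forebrain, and 16710 ± 1469 in wild-type cerebellum and 23374 ± 4176 in wild-type forebrain (SD, n = 5 each). Its difference was -0.31 ± 0.10 in knock-in mice (adjusted p = 0.0175) and -0.50 ± 0.10 in wild-type mice (adjusted p = 0.000665). The knock-in call of this probe set was lost under quantile and cyclic loess normalization (adjusted p = 0.0771 and 0.0785) and without knock-in cerebellum 11 weeks replicate 2 or knock-in forebrain 11 weeks replicate 1 (0.060 and 0.073). The second Vamp2 probe set, 1420833_at, was lower by a difference of -0.80 in knock-in mice and of -0.54 in wild-type mice (adjusted p = 0.00312 and 0.0304). The wild-type call of 1420833_at was lost in 9 of 20 alternatives, among them those without wild-type cerebellum 4 weeks replicate 1, cerebellum 11 weeks replicate 2, forebrain 4 weeks replicate 3 or either forebrain array at 11 weeks (adjusted p up to 0.209 over all 20).

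The plasma membrane SNAREs differed from each other. Stx1a, which encodes syntaxin 1A, had the largest regional difference of the 10 genes. Its leading probe set, 1437390_x_at, read 893, 530, 939, 1502 and 2235 in knock-in cerebellum, against 21874, 23712, 28950, 29785 and 30596 in knock-in forebrain. In wild-type mice it read 817, 1018, 1594, 414 and 1319 in cerebellum, against 29927, 28433, 41249, 33401 and 34338 in forebrain. The lowest forebrain array thus lay far above the highest cerebellum array. The difference was -4.67 ± 0.30 in knock-in mice (adjusted p = 3.8e-09, 25.5-fold lower) and -5.10 ± 0.30 in wild-type mice (adjusted p = 1.17e-09, 34.2-fold lower). The ending of this probe set's name marks probes that may also bind other transcripts. The second probe set, 1448366_at, gave similar differences, -4.69 in knock-in mice and -5.00 in wild-type mice, and passed the limit for low values on only 2 of 10 cerebellum arrays. Snap25, which encodes the other plasma membrane SNARE, read 40592 to 51701 over all 20 arrays. Its difference was 0.13 (95% interval -0.02 to 0.27) in knock-in mice and 0.02 (-0.12 to 0.17) in wild-type mice, and was not called (adjusted p = 0.142 and 0.792). It was called higher in knock-in cerebellum under quantile and cyclic loess normalization, and in wild-type cerebellum under cyclic loess normalization.

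**Figure D1:**
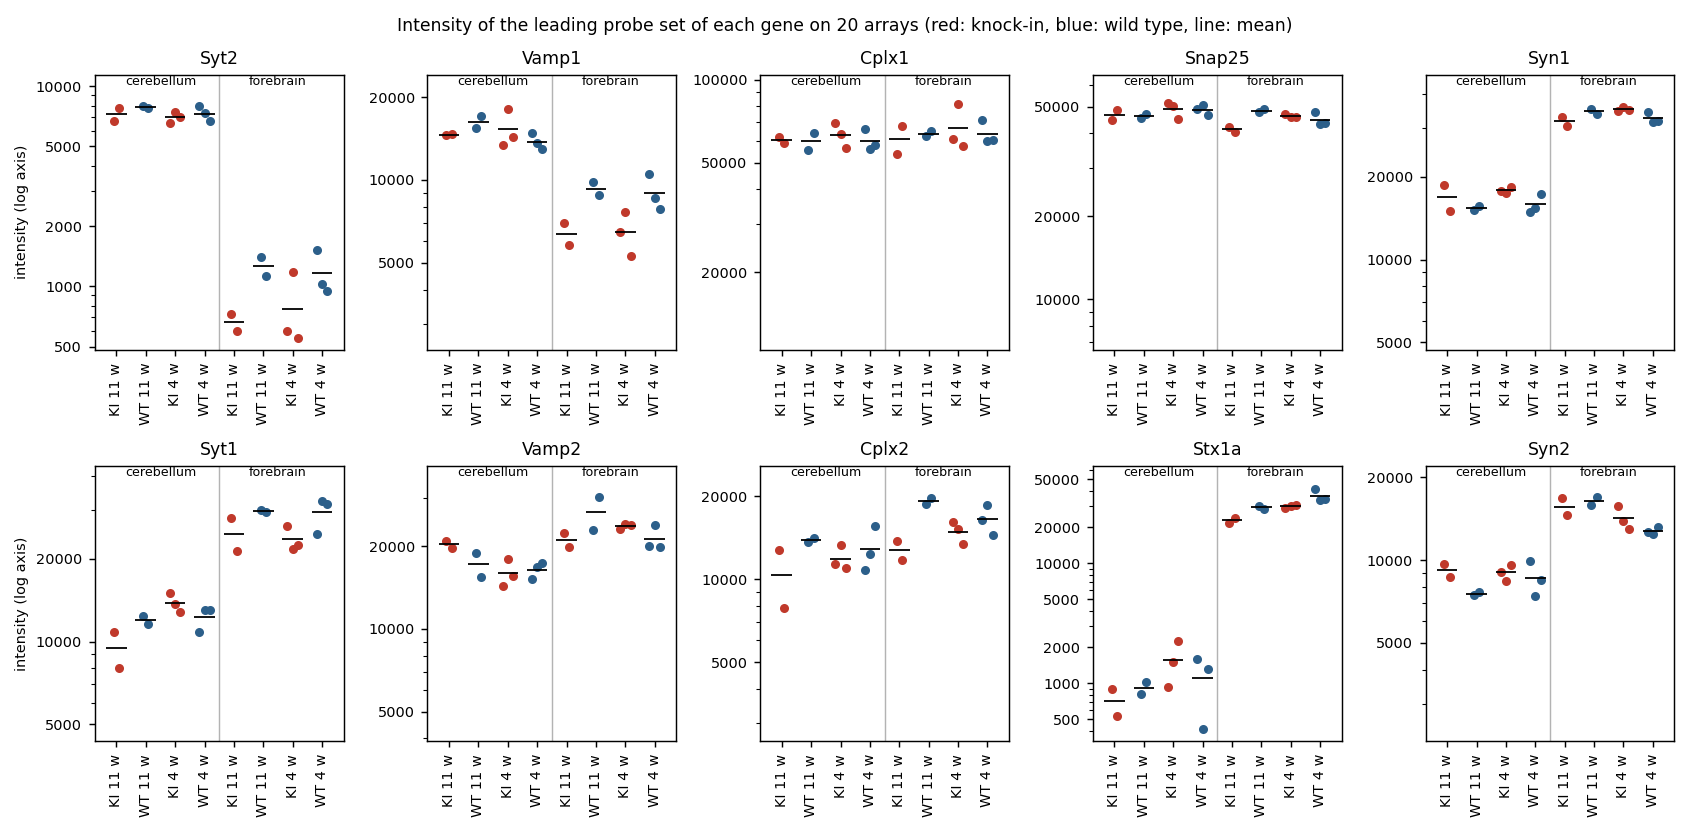
Intensity (log axis) of the leading probe set of each gene on each of the 20 arrays; the 8 groups run along the horizontal axis, KI is knock-in, WT is wild type, w is weeks, points are arrays and lines are group means. Syt2 and Vamp1 sit higher on cerebellum arrays, Syt1, Stx1a, Syn1 and Syn2 higher on forebrain arrays, and Cplx1 and Snap25 at similar levels on both.

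Of the complexins, Cplx1 showed little regional difference. Cplx1 1448832_a_at averaged 62019 ± 5002 in knock-in cerebellum and 64344 ± 11012 in knock-in forebrain, and 59927 ± 4981 in wild-type cerebellum and 63745 ± 4767 in wild-type forebrain (SD, n = 5 each). Its difference was -0.03 (95% interval -0.27 to 0.20) in knock-in mice and -0.09 (-0.33 to 0.15) in wild-type mice. None of the 3 Cplx1 probe sets was called in either genotype, with differences of -0.19 to 0.08. Cplx1 thus did not share the regional difference of Syt2 and Vamp1: the upper bounds of its intervals, at most 0.26, lie below the lower bounds of theirs, at least 0.46. Cplx2 was lower in wild-type cerebellum, by a difference of -0.42 ± 0.14 (adjusted p = 0.0191), with 13290 ± 1837 in cerebellum and 17594 ± 2109 in forebrain. In knock-in mice its difference of -0.33 was not called (adjusted p = 0.0574). The wild-type call of Cplx2 was lost without wild-type cerebellum 11 weeks replicate 1 or wild-type forebrain 11 weeks replicate 2 (adjusted p = 0.0553 and 0.0586).

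Both synapsins were lower in cerebellum. Syn1 read 14990 to 18646 in knock-in cerebellum and 30595 to 35973 in knock-in forebrain, and 14866 to 17326 in wild-type cerebellum and 31620 to 35327 in wild-type forebrain. Its difference was -0.95 ± 0.08 in knock-in mice and -1.10 ± 0.08 in wild-type mice (adjusted p = 4.81e-08 and 6.72e-09). Syn2 1460230_at read 8381 to 9678 in knock-in cerebellum and 12956 to 16739 in knock-in forebrain, and 7381 to 9948 in wild-type cerebellum and 12487 to 16881 in wild-type forebrain. Its difference was -0.71 in knock-in mice and -0.85 in wild-type mice. That of its second probe set, 1449030_at, was -0.70 in knock-in mice and -0.86 in wild-type mice, and all 4 values were called. No synapsin array of one region overlapped with the other.

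The same picture held where the forebrain mean came only from the 3 wild-type forebrain arrays at 4 weeks, whose labels agree on region. Against the 3 wild-type cerebellum arrays of that age, 13 of 19 probe sets were called, 5 higher and 8 lower, where 39.5% of all were called (21.7% higher, 17.8% lower). The 2 calls not made there were those of Vamp2 1420833_at (-0.41, adjusted p = 0.209) and Cplx2 (-0.37, adjusted p = 0.105). This comparison was added after the values had been seen. Each of the 7 arrays with conflicting labels lay on the forebrain side for the leading probe sets of Syt2, Syt1, Vamp1, Stx1a, Syn1 and both Syn2 probe sets. Syt2, for example, read 6539 to 8009 on cerebellum arrays, 550 to 1409 on the 7 and 952 to 1511 on the 3 whose labels agree.

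Cell type markers differed between the regions along with the members. Over all kept probe sets, 45.6% were called in this comparison in knock-in mice (24.5% higher, 21.2% lower) and 47.9% in wild-type mice (26.6% higher, 21.3% lower). All 11 Purkinje cell and all 9 granule cell markers were higher in cerebellum in both genotypes, and of 8 cortical pyramidal markers 1 was higher and 7 were lower. Of the 10 markers of fast-spiking, parvalbumin neurons, knock-in cerebellum had 5 higher and 2 lower, and wild-type cerebellum 4 higher and 3 lower. Their summed intensity was 112758 to 139289 in knock-in cerebellum and 38200 to 47603 in knock-in forebrain, and 115740 to 133962 in wild-type cerebellum and 45206 to 50955 in wild-type forebrain. Such a sum is carried by its brightest members: Pvalb averaged 54387 in knock-in cerebellum and 5613 in knock-in forebrain, while Tac1 went the other way, at 439 in knock-in cerebellum and 2388 in knock-in forebrain. The part of cell makeup in the regional differences of the fusion genes was not tested.

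**Figure D2:**
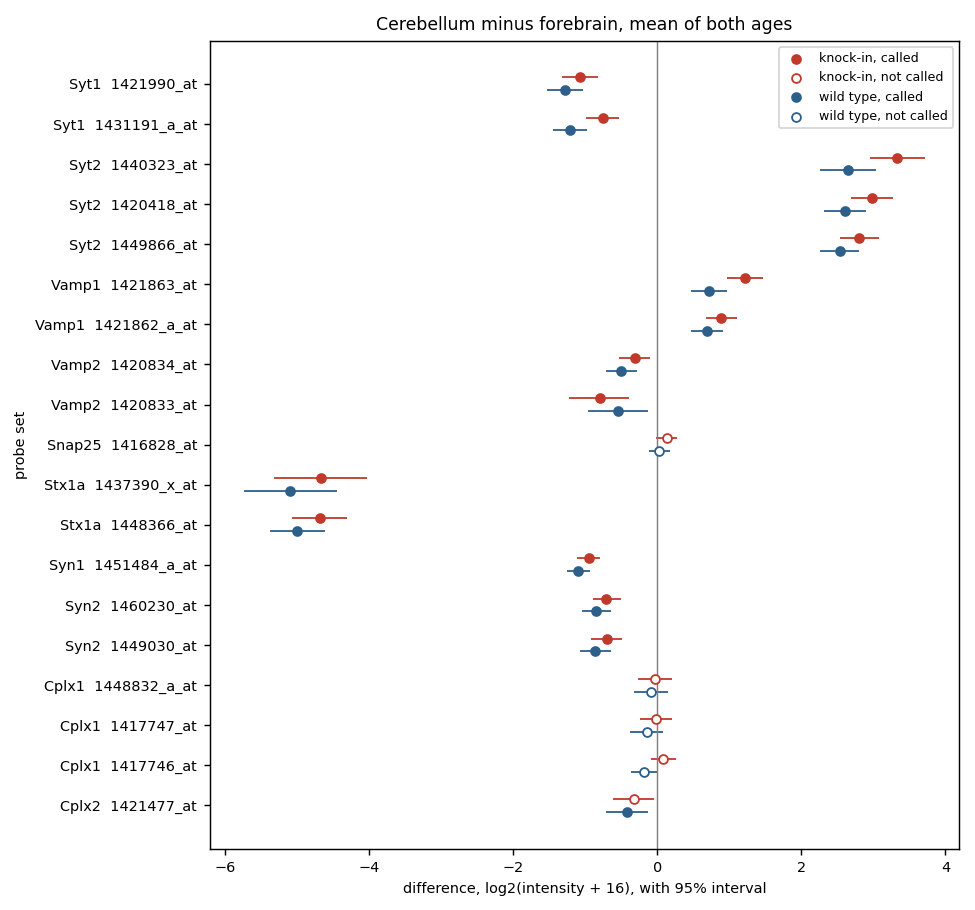
Cerebellum minus forebrain for each of the 19 probe sets, as a difference of log2(intensity + 16) on the horizontal axis, with 95% intervals, in knock-in (red) and wild-type (blue) mice; filled points were called. Syt2 and Vamp1 lie right of 0, Stx1a lies near -5, and Cplx1 and Snap25 lie close to 0.

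Set against its paralogue on the same array, each fast-synapse form behaved differently. The within-array log2 ratio of 2 probe sets has no meaning as a level, since probes differ in brightness, but its change between groups can be read. The Syt2/Syt1 log2 ratio was -0.73 ± 0.43 in knock-in cerebellum and -5.06 ± 0.50 in knock-in forebrain, and -0.69 ± 0.21 in wild-type cerebellum and -4.62 ± 0.42 in wild-type forebrain (SD, n = 5 each). The regional shift of the ratio was thus 4.41 in knock-in mice and 3.93 in wild-type mice. The size is less certain in knock-in mice, where Syt2 passed the limit for low values on 2 of 5 forebrain arrays, against 5 of 5 in wild-type mice. All 6 pairings of a Syt2 with a Syt1 probe set shifted the same way, by 3.56 to 4.41 in knock-in mice and by 3.74 to 3.93 in wild-type mice. The Vamp1/Vamp2 ratio shifted less, by 1.53 (2.89-fold) in knock-in mice and by 1.21 (2.32-fold) in wild-type mice, with all 4 pairings in the same direction. The Cplx1/Cplx2 ratio shifted least, by 0.30 in knock-in mice and by 0.33 in wild-type mice, with all 3 pairings in the same direction (0.30 to 0.41 in knock-in mice, 0.23 to 0.33 in wild-type mice). These ratios are given as a description with no test of their own.

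**Figure D3:**
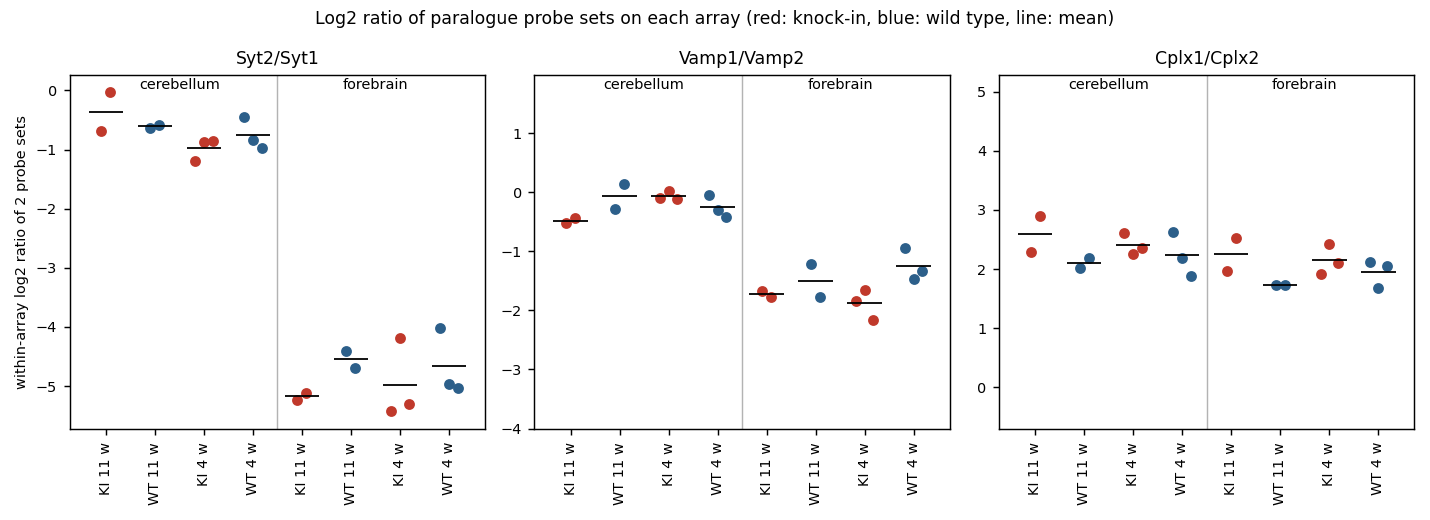
Within-array log2 ratio of each fast-synapse form to its paralogue on every array, by group; points are arrays and lines are group means, knock-in in red and wild type in blue, and all 3 vertical axes span the same range. The Syt2/Syt1 ratio lies about 4 log2 units higher in cerebellum than in forebrain, Vamp1/Vamp2 less than 2, and Cplx1/Cplx2 by less than either.

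Did the knock-in change these genes? In forebrain, averaged over both ages, 4 of the 19 probe sets were lower in knock-in than in wild-type mice and 0 were higher. Over all kept probe sets 13.5% were called, 8.36% higher and 5.13% lower. The 4 were single probe sets of Syt2, Vamp1, Syt1 and Syn2, and for none of these genes was another probe set called. Of all 19, 16 had fitted differences below 0, with a median of -0.19, beside 0.04 over all kept probe sets. For 4 of 19 the knock-in arrays lay below the wild-type arrays at both ages, where 6.29% of all did. They were the called probe sets of Vamp1, Syt1 and Syn2, and Stx1a 1437390_x_at, which was not called. That of Stx1a read 21874 to 23712 in knock-in and 28433 to 29927 in wild-type forebrain at 11 weeks. At 4 weeks it read 28950 to 30596 in knock-in and 33401 to 41249 in wild-type forebrain. The called Syt2 probe set overlapped at 4 weeks. The split of all calls into higher and lower depends on the scaling: it was 1307 higher and 801 lower with the deposited scaling, 824 and 900 after quantile, and 697 and 1076 after cyclic loess normalization. The member calls kept their direction under both, and Syn2 lost its call under both. With the filter at the 60th percentile, which keeps brighter probe sets, all calls split into 897 higher and 831 lower. By mean intensity each of the 19 was brighter than at least 52.5% of kept probe sets, and no equally bright background was compared.

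For Syt2, probe set 1440323_at read 728, 597, 596, 1177 and 550 in knock-in forebrain, against 1409, 1121, 1511, 1026 and 952 in wild-type forebrain. Knock-in arrays were the lower ones, except replicate 2 at 4 weeks, which lay within the wild-type range. The difference was -0.77 ± 0.18 (adjusted p = 0.0145), or 1.71-fold lower. Probe sets 1420418_at and 1449866_at gave differences of -0.32 and -0.22 that were not called (adjusted p = 0.128 and 0.261), and after quantile normalization the first of these was called (-0.51, adjusted p = 0.0344). All 3 Syt2 probe sets read near the limit for low values in forebrain, where 1440323_at passed on 2 of 5 knock-in arrays and on 5 of 5 wild-type arrays.

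Vamp1 1421863_at read 6979, 5800, 6457, 7629 and 5307 in knock-in forebrain, all below the wild-type values of 9809, 8794, 10468, 8599 and 7853. The difference was -0.51 ± 0.12 (adjusted p = 0.0137), or 1.43-fold lower. The second Vamp1 probe set, 1421862_a_at, read 1415 to 1976 in knock-in forebrain and 1539 to 2181 in wild-type forebrain, ranges that overlap, with a difference of -0.19 (95% interval -0.40 to 0.03, adjusted p = 0.238). Syt1 1431191_a_at read 13868, 11956, 15632, 12550 and 13142 in knock-in forebrain, against 17748, 18382, 19987, 17161 and 20328 in wild-type forebrain. These did not overlap either, and the difference was -0.48 ± 0.11 (adjusted p = 0.0118), or 1.40-fold lower. The leading Syt1 probe set differed by -0.30 (95% interval -0.55 to -0.05) and was not called (adjusted p = 0.0938).

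Syn2 1449030_at averaged 10809 ± 602 in knock-in forebrain and 13627 ± 1463 in wild-type forebrain (SD, n = 5 each), a difference of -0.35 ± 0.10 (adjusted p = 0.0349). Its leading probe set, 1460230_at, averaged 14770 ± 1492 in knock-in forebrain and 14195 ± 2017 in wild-type forebrain, a difference of 0.04 (95% interval -0.15 to 0.24). The 2 Syn2 probe sets thus disagree. Cplx2 differed by -0.37 (95% interval -0.66 to -0.08) without being called (adjusted p = 0.0783). The other members, Vamp2, Snap25, Stx1a, Syn1 and Cplx1, had differences of -0.32 to 0.19, none called. Of the fast-synapse forms, Syt2 and Vamp1 each had a called probe set, while Cplx1 had differences of -0.12 to 0.11. Against their paralogues, the Syt2/Syt1 ratio of leading probe sets shifted by -0.47, with 3 of 6 pairings shifting the other way, and the Vamp1/Vamp2 ratio by -0.43, with all 4 pairings below 0 (-0.71 to -0.11). The Cplx1/Cplx2 ratio shifted by 0.36, with all 3 pairings above 0 (0.25 to 0.48).

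The forebrain calls rest on few arrays. Without knock-in forebrain 11 weeks replicate 2, 0 of 19 probe sets were called, with adjusted p of 0.0675 for Syt2, 0.0703 for Vamp1, 0.0606 for Syt1 and 0.135 for Syn2. Without wild-type forebrain 11 weeks replicate 1, 1 was called, that of Syt1, and the adjusted p was 0.0678 for Syt2 and 0.0599 for Vamp1. Over all kept probe sets, leaving out these arrays cut the count of calls to 729 and 851, from 2108.

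**Figure D4:**
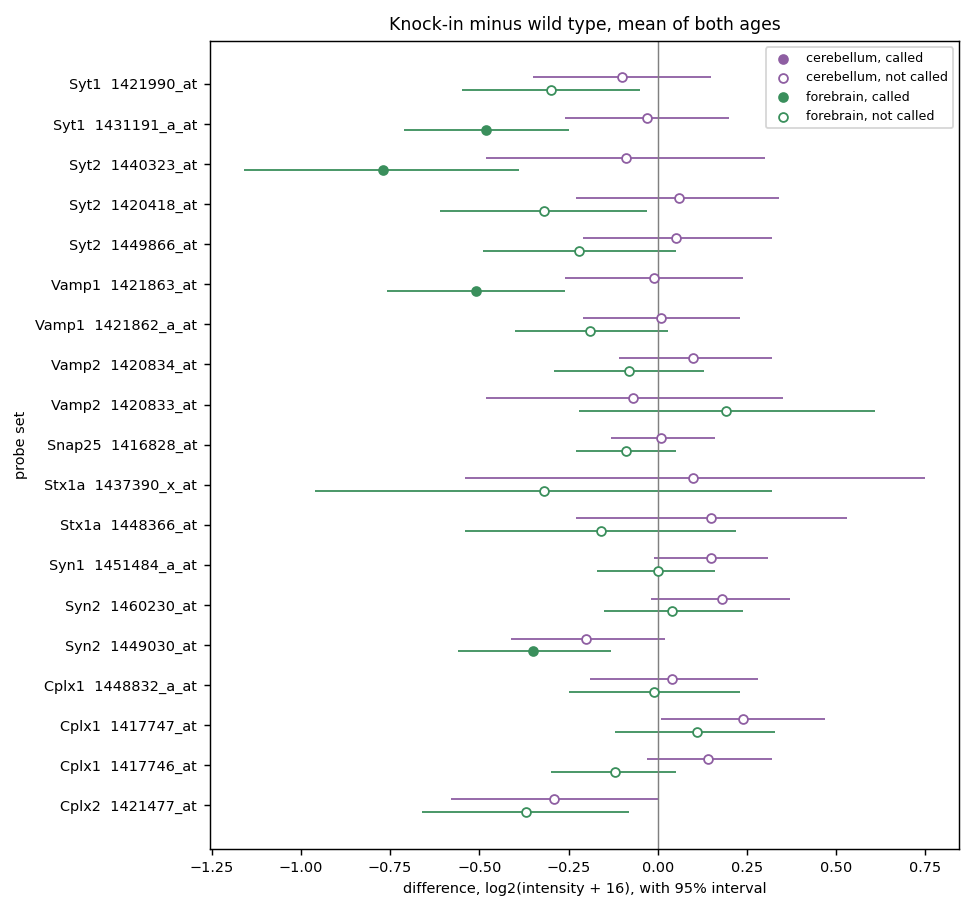
Knock-in minus wild type for each of the 19 probe sets, as a difference of log2(intensity + 16) on the horizontal axis, with 95% intervals, in cerebellum (purple) and forebrain (green); filled points were called. In forebrain single probe sets of Syt1, Syt2, Vamp1 and Syn2 lie left of 0 and are filled, while no point for cerebellum is filled.

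At each age alone there were fewer calls, with a median over the 19 of -0.29 at 11 weeks and -0.07 at 4 weeks. At 11 weeks 0 of 19 were called, where 0.864% of all were, and at 4 weeks 1 was, where 7.37% of all were: Syt1 1431191_a_at (-0.48, adjusted p = 0.0466), where 2.42% of all were lower. Syt2 1440323_at differed by -0.91 at 11 weeks and by -0.63 at 4 weeks, and Vamp1 1421863_at by -0.54 at 11 weeks and -0.48 at 4 weeks (adjusted p = 0.0644 to 0.174 for these 4 values, none called). The other Syt2 probe sets, near the limit for low values, had lower knock-in means at 11 weeks. These were 485 against a wild-type mean of 721 for 1420418_at, and 420 against 684 for 1449866_at. At 4 weeks 1420418_at averaged 548 against 575, and 1449866_at went the other way, with 734 against 607. At 11 weeks the knock-in arrays lay below the wild-type arrays for 15 of 19 probe sets, where 21.1% of all kept probe sets did so with 2 arrays a side. At 4 weeks they did for 4 of 19, where 11.5% of all did. No probe set was called in the test of whether the genotype difference itself differed between ages, either in forebrain (smallest adjusted p = 0.565, 0% of all called) or in cerebellum (0.737, 0.0256% of all called).

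Some marker genes differed between the genotypes in forebrain, where 13.5% of all kept probe sets were called. Of 10 markers of fast-spiking, parvalbumin neurons, cells known to use Syt2, 0 were higher and 2 were lower in knock-in forebrain: the potassium channels Kcna1 (-0.49, adjusted p = 0.0196) and Kcnc1 (-0.63, adjusted p = 0.0342). The summed intensity of the 10 markers was 38200 to 41759 at 11 weeks and 38654 to 47603 at 4 weeks in knock-in forebrain. In wild-type forebrain it was 48287 to 48829 at 11 weeks and 45206 to 50955 at 4 weeks. Pvalb itself, the marker that names these cells, read 4674 to 7245 in knock-in forebrain and 4692 to 6880 in wild-type forebrain (0.05, adjusted p = 0.832). Hapln1 lay below the limit for low values on every knock-in forebrain array, and Hapln1 and Acan did on both wild-type arrays at 11 weeks. Of 8 cortical pyramidal markers none was called, with a median of -0.28, and their sum was 56532 to 65348 and 65616 to 69271 in knock-in forebrain at 11 and 4 weeks, against 75561 to 76251 and 67142 to 95116 in wild-type forebrain. Of the 11 Purkinje cell markers, which forebrain neurons express in part, 1 was higher and 5 were lower in knock-in forebrain, among them Gad1, which encodes a GABA-making enzyme (-0.62, adjusted p = 0.00137). Their sum was 52340 to 62331 in knock-in forebrain and 69477 to 82400 in wild-type forebrain, and 2 of them lay below the limit for low values in every forebrain group. The GAPDH 3'/5' ratio was 0.839 ± 0.035 in knock-in forebrain and 0.801 ± 0.033 in wild-type forebrain (SD, n = 5 each). At 4 weeks it was 0.859 (0.827 to 0.89) in knock-in forebrain and 0.793 (0.744 to 0.828) in wild-type forebrain. At 11 weeks it was 0.811 in knock-in forebrain and 0.813 in wild-type forebrain. The actin ratio went the other way, with 1.09 ± 0.104 in knock-in forebrain and 1.16 ± 0.0475 in wild-type forebrain, and at 11 weeks it did not overlap (0.934 to 1.06 in knock-in forebrain, 1.09 to 1.15 in wild-type forebrain). The part of these in the differences of Syt2, Vamp1, Syt1 and Syn2 was not tested.

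In cerebellum none of the 19 probe sets was called between genotypes, where 3.35% of all kept probe sets were. Of the 19, 1 had an unadjusted p under 0.05, beside 3364 of all 15627 kept, and the smallest adjusted p was 0.204 (limma). Syt2 1440323_at averaged 7119 ± 526 in knock-in cerebellum and 7542 ± 556 in wild-type cerebellum, and Vamp1 1421863_at averaged 15009 ± 1825 in knock-in cerebellum and 14770 ± 1605 in wild-type cerebellum (SD, n = 5 each). Their differences were -0.09 (95% interval -0.48 to 0.30) and -0.01 (-0.26 to 0.24), and the groups overlapped. Over the 19 the differences were -0.29, for Cplx2, to 0.24, for Cplx1 1417747_at, with a median of 0.04. In the same tissue 3 of 11 Purkinje cell markers were lower in knock-in mice, such as Cacna1g (-0.51, adjusted p = 0.0125), and 0 were higher. Their summed intensity was 260167 to 292506 at 11 weeks and 290965 to 303584 at 4 weeks in knock-in cerebellum, against 339723 to 340395 and 329589 to 341634 in wild-type cerebellum.

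The genotype difference was not shown to differ between the regions for any member. As cerebellum effect minus forebrain effect, the interaction was 0.68 ± 0.26 for Syt2 1440323_at, 0.50 ± 0.17 for Vamp1 1421863_at and 0.45 ± 0.15 for Syt1 1431191_a_at. None was called (adjusted p = 0.404, 0.314 and 0.331), where 0.282% of all kept probe sets were. Of the 19, 4 had an unadjusted p under 0.05 (limma), beside 1428 of all 15627 kept probe sets.

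No member was called for age. Between 11 and 4 weeks 0 of 19 were called in cerebellum, where 1.75% of all were, and 0 in forebrain, where 0.096% of all were. At an unadjusted p under 0.05 there were 3 in each region, beside 2424 of all 15627 kept probe sets in cerebellum and 1826 in forebrain. The smallest adjusted p was 0.234 in cerebellum and 0.307 in forebrain (limma). Syt2 1440323_at averaged 7586 ± 578 at 11 weeks and 7160 ± 520 at 4 weeks in cerebellum (SD, n = 4 and 6), a difference of 0.08 (95% interval -0.30 to 0.47). Stx1a 1437390_x_at read 21874 to 29927 at 11 weeks and 28950 to 41249 at 4 weeks in forebrain, a difference of -0.35 (95% interval -0.99 to 0.30). Among the marker lists, 4 of 8 oligodendrocyte markers were lower at 11 weeks in cerebellum, such as Ugt8a (-1.29, adjusted p = 0.000539).

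Ordered by group mean, Syt2 ran from wild-type cerebellum at 11 weeks (7894 ± 163) through the other cerebellum groups to knock-in cerebellum at 4 weeks (7013 ± 461), and neighbouring cerebellum groups overlapped. A gap followed, down to wild-type forebrain at 11 weeks (1265 ± 204), with knock-in forebrain lowest at 774 ± 349 at 4 weeks and 662 ± 92.2 at 11 weeks. Vamp1 had gaps without overlap at 2 places: between cerebellum and forebrain, and between wild-type forebrain (8973 ± 1347 at 4 weeks) and knock-in forebrain (6464 ± 1161 at 4 weeks). Stx1a was highest in wild-type forebrain at 4 weeks (36329 ± 4286), which stood above knock-in forebrain at 4 weeks (29777 ± 823). Wild-type forebrain at 11 weeks (29180 ± 1056) stood above knock-in forebrain at 11 weeks (22793 ± 1300), also without overlap. Its lowest group was knock-in cerebellum at 11 weeks (711 ± 256). Syt1 had a gap between forebrain and cerebellum, from knock-in forebrain at 4 weeks (23539 ± 2482) to knock-in cerebellum at 4 weeks (13821 ± 1120). Its lowest group, knock-in cerebellum at 11 weeks (9437 ± 2013), did not overlap with wild-type cerebellum at 11 weeks (11998 ± 545). That lowest group, with arrays up to 10861, did overlap with wild-type cerebellum at 4 weeks, with arrays down to 10793. For Cplx1 all neighbouring groups overlapped, between 66710 ± 13163 in knock-in forebrain at 4 weeks and 59790 ± 6201 in wild-type cerebellum at 11 weeks. These SDs are over 2 or 3 arrays.

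The leading probe sets of Syt2 and Vamp1 varied together beyond their shared regional difference. With the mean of each region removed, their Pearson r over 20 arrays was 0.89, the highest among the 9104 other genes for either of them. The arrays share scaling and labelling, and r is given as a description. Within forebrain r was 0.95 (Spearman 0.92, 10 arrays), and 0.94 without the 2 arrays farthest from the median. Within cerebellum it was 0.58 (Spearman 0.75) and was 0.30 without 2 arrays. With the mean of each of the 8 groups removed, r was 0.81. The pattern belongs to this pair of probe sets: the other 5 pairings of a Syt2 with a Vamp1 probe set had r of -0.05 to 0.28, and 1420418_at with 1421863_at had 0.38 in forebrain and -0.84 in cerebellum.

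**Figure D5:**
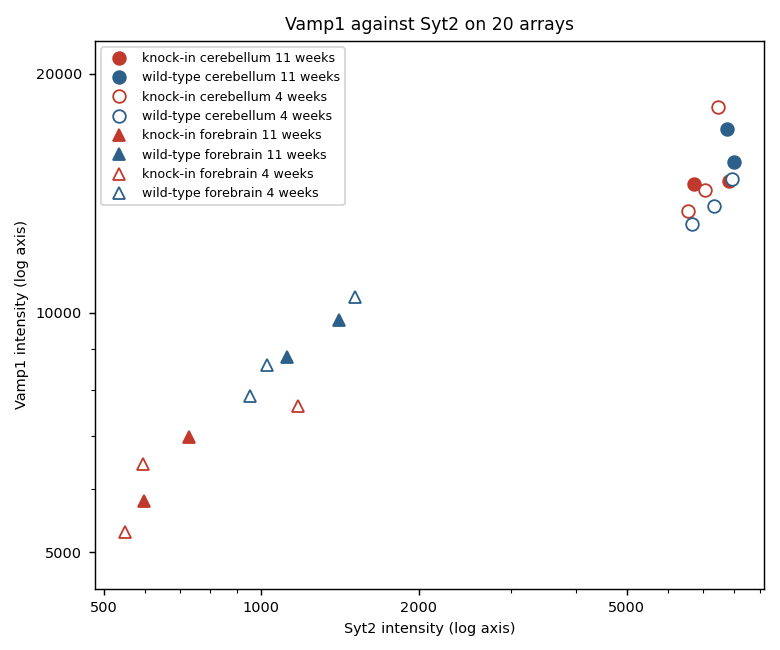
Intensity of Vamp1 1421863_at (vertical) against Syt2 1440323_at (horizontal), both on log axes; circles are cerebellum, triangles forebrain, red knock-in, blue wild type, filled 11 weeks and open 4 weeks. The 10 forebrain arrays lie along a line, from 550 to 1511 for Syt2, with knock-in arrays mostly at its low end.

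The genes most like Syt2 after Vamp1 were Glul, which encodes glutamine synthetase (r = 0.81), Adssl1 (0.80), Camk2g (0.79) and the potassium channel gene Kcnk3 (0.78). For Vamp1 they were Camk2g (0.81), Evi5 (0.79), Glul (0.78) and Rasgrf2 (0.78). For Cplx1 they were Asrgl1 (0.80), Polr1a (0.78), Slc35b2 (0.74), Ccn1 (0.73) and Slc12a9 (0.71), none of them shared with the other 2. Among the 10 members themselves, the next highest r was 0.65, between Syt1 and Cplx2.

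Other genes of the pathway were taken from 6 lists, each gene by its brightest kept probe set. Over all kept probe sets, 45.6% were called between regions in knock-in mice (24.5% higher, 21.2% lower in cerebellum). In wild-type mice 47.9% were (26.6% higher, 21.3% lower), and the list counts are to be read beside these shares. Of 22 further SNAREs and fusion proteins, knock-in cerebellum had 2 higher and 14 lower than forebrain, and wild-type cerebellum 4 higher and 14 lower, with medians of -0.34 in knock-in mice and -0.41 in wild-type mice. In wild-type mice these included the calcium sensor gene Doc2a and the complexin gene Cplx3, which passed the limit for low values on 0 of 5 cerebellum arrays. Against that limit they were at least 3.23-fold (Doc2a, adjusted p = 1.41e-09) and 2.59-fold (Cplx3, adjusted p = 3.05e-08) lower. The priming factor gene Unc13b was lower (-1.61) and Cadps2 higher (1.16) in wild-type cerebellum. Of 11 other synaptotagmins, 3 were higher and 4 lower in cerebellum in both genotypes. In wild-type mice Syt9 was higher by 2.27 and Syt12 by 1.16, while Syt17 and Syt5 were lower (-2.94 and -2.65), each above the limit on 3 of 5 cerebellum arrays.

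For the remaining lists too, the shares called over all kept probe sets were 45.6% in knock-in mice and 47.9% in wild-type mice. Of 18 vesicle membrane proteins and phosphoproteins, knock-in cerebellum had 2 higher and 7 lower than forebrain, and wild-type cerebellum 0 higher and 11 lower, such as Syngr3 (-1.38) and Syp, which encodes synaptophysin (-0.65). Rab27b, at 0 of 5 wild-type cerebellum arrays above the limit, was at least 3.65-fold lower, and Rab3b was lower with 1 of 5 above it, so that its size is uncertain. Of 6 active zone scaffolds, knock-in cerebellum had 2 higher and 1 lower, and wild-type cerebellum 3 higher and 2 lower, where Ppfia4, a liprin gene, and Erc1 were higher (1.79 and 1.06) and Pclo and Bsn lower (-0.74 and -0.69). Of 13 recycling genes, knock-in cerebellum had 1 higher and 3 lower, and wild-type cerebellum 3 higher and 5 lower, such as Ap3b2, an adaptor subunit gene (-0.71 in knock-in mice, -0.81 in wild-type mice). Of 4 genes for transmitter loading, 1 was higher and 2 lower in each genotype: Slc32a1, the vesicular GABA transporter gene, was higher (1.01 in knock-in mice, 0.84 in wild-type mice), and Slc17a6, a vesicular glutamate transporter gene, was lower (-1.10 in knock-in mice, -1.12 in wild-type mice).

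Between genotypes in forebrain 4 genes of the 6 lists were called, where 13.5% of all kept probe sets were. The lists held 22, 11, 18, 6, 13 and 4 tested genes. None of the 22 SNAREs and fusion proteins, the 11 synaptotagmins or the 4 loading genes were called. Sncb (beta-synuclein, 0.38), Ppfia4 (0.55) and Cltb (a clathrin light chain, 0.40) were higher in knock-in forebrain, and Dnajc5 (cysteine string protein, -0.26) was lower. In cerebellum 0 genes of the 6 lists were called, where 3.35% of all were. Between 11 and 4 weeks 0 were called in either region, where 1.75% of all were called in cerebellum and 0.096% in forebrain.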

How the data were processed

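The authors deposited linear array intensities, a single value for each probe set on each array, with a 2% trimmed mean of 2500.59 to 2500.75 on every array; the summarising software is not given in the sources used here. Of 22690 probe sets, 64 are array controls. GEO's platform annotation names a single gene for 20380, several for 691 and none for 1555, and 20351 matched RefSeq (GRCm38.p6) by Entrez number, with 0 symbols changed.

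Probe sets above the array's 40th percentile (606 to 775, median 681) on at least 2 arrays were kept, which left 15627. The model gave each group its own mean and was fitted to log2(intensity + 16) of all kept probe sets on 20 arrays with limma 3.58.1 in R 4.3.3 (lmFit and eBayes, 12 residual and 3.45 prior degrees of freedom). P-values are two-sided, with Benjamini-Hochberg adjustment over all kept probe sets, and errors of differences are standard errors. Comparisons share arrays: both regional comparisons and both genotype comparisons use the same 20. Likeness between genes was Pearson's r with each region's mean removed. Promoters were read with Python 3.11.15 (pandas 2.3.3, matplotlib 3.10.9 for figures).

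All member probe sets were described. From each pathway list up to 4 called genes per comparison, by p, could be named, and 5 like-pattern genes for each of Syt2, Vamp1 and Cplx1. The members and lists were chosen with earlier results of these data known. Alternatives were another offset, no filter, a filter at the 60th percentile, and quantile and cyclic loess normalization. Further alternatives were a mean-variance trend, the compared groups alone, 1 probe set per gene, a replicate block and leaving out each array. The fit was tested on simulated data.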

Additional observations from a re-analysis of the deposited data

How the results depend on the processing

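Of 659 values of the 33 called member differences under the alternatives, 625 kept direction and call, 34 lost the call and 0 turned sign; 26 differences kept their call in every alternative run. With 1 probe set per gene the member counts, now out of 10 genes, were 7 in the knock-in and 8 in the wild-type regional comparison. Between genotypes in forebrain the count was 2 of 10, where 1432 of all 9105 genes were called. With the compared groups alone the forebrain count was 2, with Syt2 at an adjusted p of 0.0636 and Syn2 at 0.0567. Leaving out 1 array at a time gave counts of 13 to 15 in both regional comparisons, 0 to 5 between genotypes in forebrain, 0 to 1 between ages in cerebellum and 0 in the other comparisons. The array that gave 1 was wild-type cerebellum 4 weeks replicate 2, without which Stx1a 1437390_x_at was called lower at 11 weeks (-0.87, adjusted p = 0.0472). The count of 5 arose without knock-in cerebellum 11 weeks replicate 1 or 2. Deviations of arrays with the same replicate number had correlations of -0.10 to 0.05 between genotypes, -0.02 to 0.11 between regions and -0.10 to 0.10 between ages. With 2 or 3 arrays per group, such correlations cannot decide whether the replicate numbers pair the samples. With the replicate block the counts were 14 and 15 in the knock-in and wild-type regional comparisons, 3 between genotypes in forebrain (Syn2 at 0.0586) and 0 elsewhere. Of 2147 values of 100 uncalled member differences, 13 became called. Over all kept probe sets, the count of calls between genotypes was 2108 in forebrain, 1301 with the compared groups alone and 1334 with the replicate block. In cerebellum it was 524, 155 with the block, 307 without the filter and 94 at the lowest without 1 array, and its split of 352 higher and 172 lower became 194 and 166 after quantile and 202 and 236 after cyclic loess normalization. Between ages the block gave 9 calls in cerebellum, beside 273, and 1 in forebrain, beside 15, and for the difference of genotype effects between regions 6, beside 44. With 1 probe set per gene the regional counts, out of 9105 genes, were 4382 for knock-in mice and 4593 for wild-type mice. They stand beside 7132 and 7485 out of 15627 probe sets, so the totals differ as well. The cause of these changes was not tested, except that fewer probe sets or arrays were in the fit where some were left out. Syt2 in forebrain and Stx1a in cerebellum read near the limit for low values, which leaves the size of their differences less certain.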
